A study of Homo sapiens with 12 samples.

Results

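The nuclear genes of oxidative phosphorylation are the genes of the cell nucleus that encode subunits of respiratory complexes I to IV, cytochrome c and ATP synthase (complex V), together with assembly factors that carry the same name stems. They were chosen by symbol, namely those starting with NDUF, UQCR or ATP5, those with COX followed by a digit, and SDHA, SDHB, SDHC, SDHD, CYC1 and CYCS. The letters matched 133 of the 22784 symbols in the table. Of these, 102 were kept as members. The others were 20 pseudogenes, 4 divergent transcripts, 3 antisense RNAs, 1 readthrough transcript and 3 genes of the mitochondrial genome (COX1, COX2 and COX3). The members comprised 7 core and 29 accessory subunits of complex I with 8 of its assembly factors, 4 genes of complex II, 10 of complex III, cytochrome c, 15 subunits and 9 assembly factors of complex IV, and 19 genes of complex V. The set is not complete: NDUFA6, an accessory subunit of complex I, is not among the symbols, nor are the complex IV isoforms COX4I2, COX6A2, COX7A1 and COX8C.

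RNA was sequenced from SK-UT-1, an established human cell line from a uterine leiomyosarcoma, a malignant tumour of smooth muscle. Cells had received the DMSO vehicle, 5 µM JQ1 or 5 µM I-BET-762 for 48 h, and no other agent or genetic change separated the groups. JQ1 and I-BET-762 are inhibitors of the BET bromodomain proteins, which bind acetylated histones and help to recruit the transcription machinery. The labels give 4 libraries a group, and 10 of the 12 were analysed here: DMSO replicates 13, 14 and 15, JQ1 replicates 17, 18, 19 and 20, and I-BET-762 replicates 21, 22 and 23. All came from a single cell line, and nothing in the labels says that the libraries of a group were separate cultures, so the p-values measure the spread between these samples, which may be technical.

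Oxidative phosphorylation passes electrons from NADH through complex I, or from succinate through complex II, to ubiquinone, complex III, cytochrome c and complex IV, which reduces oxygen. Complexes I, III and IV pump protons across the inner mitochondrial membrane, and complex V uses the gradient to make ATP. Apart from complex II, each complex is a mosaic of subunits from the nuclear and the mitochondrial genome, and assembly factors build it without staying in it. The nuclear promoters are known for sites of the activators NRF1 and GABP, with coactivators of the PGC-1 family.

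Between 35564586 and 39658989 reads fell on genes in a library. The values are normalized counts, that is, reads divided by the authors' scaling factor of the library, which ran from 0.91 to 1.1, so that 1 normalized count is close to 1 read. A count of 0 allows up to 3 reads, or 2.73 to 3.30 normalized counts, and such limits cover counting error only. HEXIM1 and MYC, genes known to respond to BET inhibitors, rose by 1.53 and 1.0 on the log2 scale with JQ1 and by 1.05 and 0.54 with I-BET-762. No direction of response was set for either gene, so these rises were not a test of drug action. Smooth muscle markers were present at 6899 to 7326 normalized counts for ACTA2 and 187 to 188 for DES with DMSO, while MYOCD stayed at or under 1.1 in every library. MYH11, another listed smooth muscle marker, had no values, and the levels of the other markers are not given here. Of the 8 smooth muscle markers tested, 6 fell and 2 rose with JQ1, where 35.6% of all genes fell and 36.0% rose, and 5 fell and 1 rose with I-BET-762, where 31.3% fell and 29.9% rose. All 4 epithelial markers tested, of 5 listed, fell with JQ1 and with I-BET-762. Their log2 fold changes with JQ1 ran from −1.60 to −0.62, with a median of −0.94. KRT19 went from 740 to 742 normalized counts with DMSO to 202 to 274 with JQ1. The part of these marker changes in the results on the members was not tested. The leukocyte marker PTPRC was listed at 0 in every library but I-BET-762 replicate 21, at 1.0. CD14, a monocyte marker, had 23.7 to 36.1 normalized counts with DMSO, 28.6 to 37.0 in JQ1 libraries and 17.7 to 22.1 in I-BET-762 libraries. It was 0.66 higher with JQ1 than with I-BET-762 (limma, adjusted p = 0.0387), a call lost without any 1 of JQ1 replicates 18, 19 and 20 or of the I-BET-762 replicates. In these bulk samples fewer cells of a type and less RNA per cell cannot be told apart.

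In vehicle-treated cells the levels of the members are given in normalized counts per kilobase of transcript, the scale on which different genes are compared here. The length used was that of the canonical transcript in Gencode V44, such as 1759 bases for ATP5F1B, 3610 for ATP5F1E and 8459 for UQCRB. The order of genes depends on that choice, and whether these cells use those transcripts was not tested. ATP5F1B, the catalytic beta subunit of ATP synthase, stood first at 22116 ± 919 (SD, n = 3). NDUFS5, an accessory subunit of complex I, followed at 16287 ± 884, and UQCRH, the hinge protein of complex III, at 14178 ± 747. COX7A2 and COX6B1, subunits of complex IV, reached 12601 ± 557 and 12329 ± 352 and did not differ beyond their spread. At the low end, the paralogs with restricted expression were near the counting limit. COX7B2 had 1.9 normalized counts in DMSO replicate 13, 1.0 in JQ1 replicate 19 and was listed at 0 in the other 8 libraries. COX6B2, the testis isoform of COX6B1, reached 30.6 ± 0.8 per kilobase with DMSO, and NDUFA4L2, a paralog of the complex IV subunit NDUFA4, 13.0 ± 5.4.

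**Figure D1:**
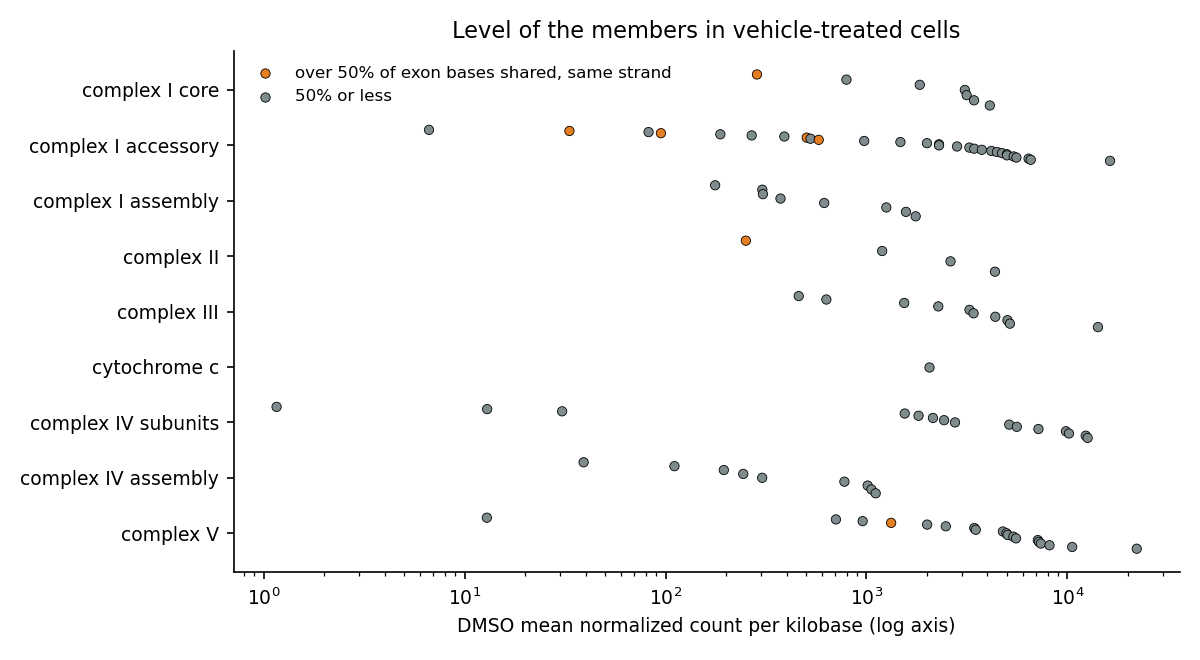
Level of the 102 members with DMSO, as the mean normalized count per kilobase of the canonical transcript (log axis), by class; each point is a gene. Orange points mark the 7 members with over 50% of exon bases also annotated as exons of another gene on the same strand, which lie between 33.3 and 1326, while the other 95 have a median of 2480.

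Some subunits that every complex I contains were nonetheless low in this table. NDUFA7 was at 33.3 ± 1.3 per kilobase, NDUFA13 at 94.9 ± 3.5 and the core subunit NDUFV2 at 285 ± 5.5. NDUFA7 and NDUFA13 share 77.9% and 83.9% of their exon bases with another annotated gene on the same strand, and NDUFV2 shares more than either, in Gencode V44. The 5 complex I subunits with over 50% shared had levels of 33.3 to 579 and a median of 285, against a median of 3151 over the other 31, a limit of sharing chosen after the values were seen. How reads in shared exons were counted is not given in the sources used here, and its part in these levels was not tested. NDUFA3, at 1.0 to 10.7 normalized counts in all libraries, lacks such sharing and did not reach the filter for testing, which asked for a normalized count of at least 10 in at least 3 libraries. With COX7B2 it was left out, so that 100 of the 102 members were tested.

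With JQ1, 41 of the 100 tested members rose and 18 fell at an adjusted p under 0.05 (limma, Benjamini-Hochberg over 14839 genes). These 59 members compare with 71.7% of all genes tested, 36.0% higher and 35.6% lower. In the I-BET-762 libraries 28 members rose and 15 fell, 43 in all, against 61.1% of all genes, 29.9% higher and 31.3% lower. A further limit of a 1.5-fold change left 12 members with JQ1, 7 up and 5 down, where 36.1% of all genes passed, 13.3% up and 22.8% down. NDUFA4L2, among these falls, reached the filter's count in no JQ1 library and was tested only through its higher counts in the other groups. The same limit left 4 members with I-BET-762, 2 up and 2 down, against 26.9% of all genes, 8.96% up and 17.9% down. By either rule the share of members called lay under that of the whole table. In 38 members every JQ1 library lay above every DMSO library and in 18 below, against 34.1% and 34.3% of all genes (68.4% in either direction). The I-BET-762 libraries lay wholly above the vehicle in 36 members and below in 24, against 34.8% and 36.2% of all genes (71.0% in either direction). The members' median log2 fold change stood at 0.07 for JQ1 and 0.04 for I-BET-762, beside 0.01 and −0.00 over all genes tested. Leaving out 1 library gave members' medians of 0.058 to 0.115 for JQ1 and 0.019 to 0.061 for I-BET-762.

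The split between rises and falls depended on how the libraries were scaled. With the authors' scaling 69.5% of the members called for JQ1 were up, and 65.1% of those called for I-BET-762, beside 50.3% and 48.9% over all genes. A rescaling to equal totals moved the median of all genes to −0.18 with JQ1 and −0.10 with I-BET-762. There JQ1 had 24 rises and 43 falls among members, 35.8% up beside 33.9% over all genes, and I-BET-762 had 23 rises and 32 falls, 41.8% up beside 37.3%. Over all 14839 genes, equal totals gave 3537 rises and 6904 falls with JQ1, and 3365 and 5664 with I-BET-762. These all-gene counts are the background for each class or list given below at equal totals. With the further limit of 1.5-fold, equal totals turned the balance for JQ1 to 4 members up and 9 down. The share of all genes at that limit and scaling is not given here. Equal upper quartiles gave 36 rises and 23 falls for JQ1, 61.0% up beside 44.9%. A rescaling shifts all genes nearly alike, so the members' median less that of all genes is fixed by construction. Under all the alternative settings in which they were tested, 24 members remained up and 15 down with JQ1. For I-BET-762 these counts were 22 and 11. COX6B2, among the falls with each, had too few reads to be tested in 1 of the 19 settings, a mean of at least 100. The share of all genes that stayed called in every setting is not given here, for any comparison. Counts of members that stayed called therefore cannot be set against it.

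The changes were small for most members. In absolute value, the median change on the log2 scale was 0.23 for JQ1, against 0.43 over all genes, and 0.17 for I-BET-762, against 0.33. For 75 of the 100 members the 95% confidence interval of the change with JQ1 lay wholly inside 1.5-fold in either direction, which held for 43.6% of all genes. With I-BET-762 this was so for 82 members and 50.4% of all genes. A mean of 100 normalized counts was reached by 94 members and by 11072 of the genes tested. Over those 11072 genes the shares were 56.6% with JQ1 and 65.7% with I-BET-762. The median standard error with JQ1 was 0.071 for members, 0.078 over all genes and 0.066 over the 11072. The part of abundance in the members' shares was not tested.

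**Figure D2:**
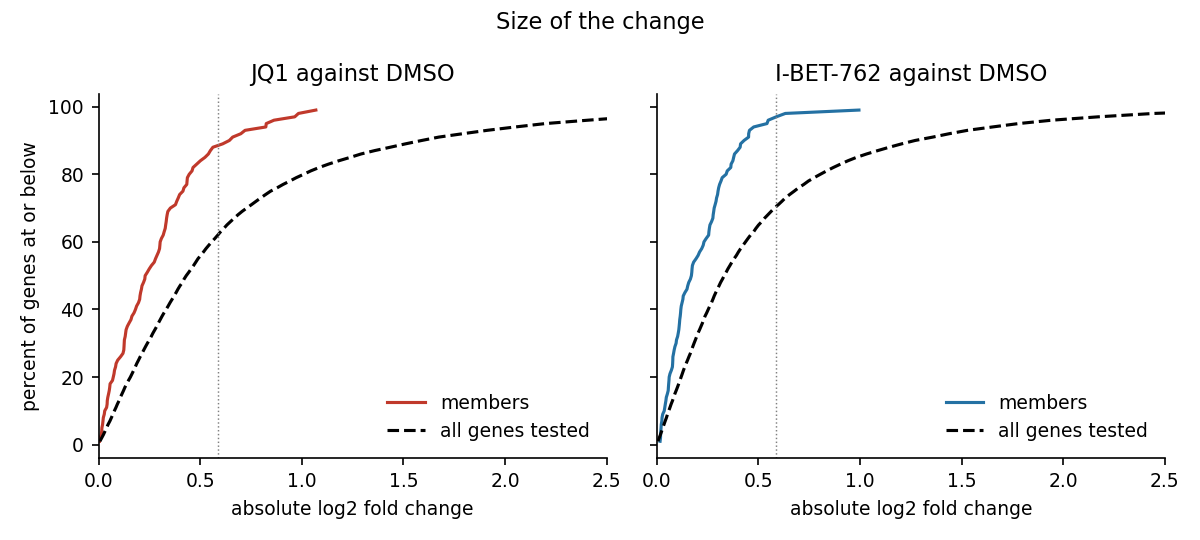
Cumulative distribution of the absolute log2 fold change against DMSO, from the 1st to the 99th percentile, over the 100 tested members (solid line) and all 14839 genes tested (dashed line), with JQ1 on the left and I-BET-762 on the right; the dotted line marks 1.5-fold. The members' line lies to the left, with medians of 0.23 and 0.17 against 0.43 and 0.33 over all genes.

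The comparisons with JQ1 and with I-BET-762 share the DMSO libraries, so their values are set side by side. Passing with 1 inhibitor alone does not show a difference between them, and their direct comparison is given further on.

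**Figure D3:**
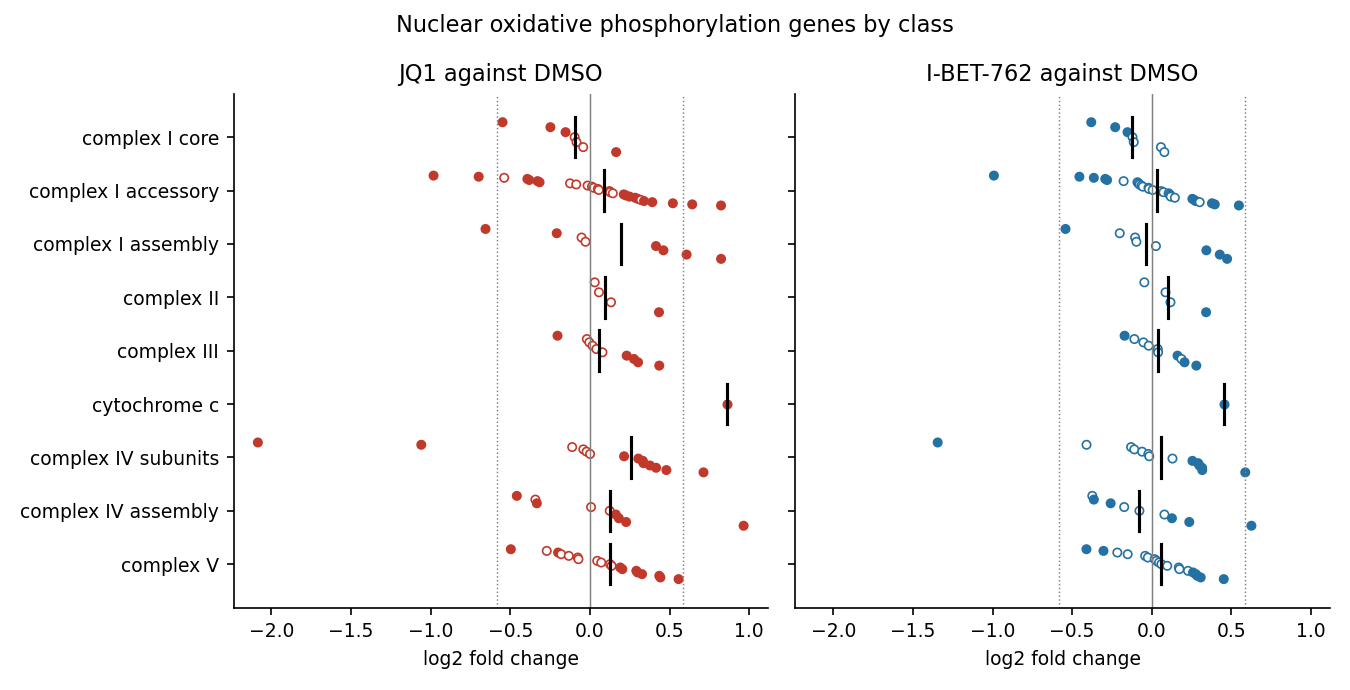
Log2 fold change of each tested member against DMSO (horizontal axis) by class, with JQ1 on the left and I-BET-762 on the right; filled points passed an adjusted p of 0.05, open points did not, black bars are class medians and dotted lines mark 1.5-fold. The core subunits of complex I sit mostly left of 0, with medians of −0.10 and −0.12, and cytochrome c stands to the right at 0.86 and 0.45.

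Of the 7 core subunits of complex I, which carry its flavin and iron-sulfur clusters, 3 fell and 1 rose with JQ1, where 35.6% of all genes fell. With I-BET-762, 3 of 7 fell and the other 4 did not pass, where 31.3% of all genes fell. Rescaling to equal totals gave 5 falls with each, where 6904 of the 14839 genes tested fell with JQ1 and 5664 with I-BET-762. NDUFS1, the largest of the core subunits, fell with both inhibitors, and NDUFS8 passed with JQ1. NDUFV1, the NADH-binding subunit, had a log2 fold change of 0.16 with JQ1 (adjusted p = 0.00235), which turned to −0.02 after rescaling to equal totals. The summed normalized count of the 7 core genes was 27283 to 28101 with DMSO, 24480 to 25824 in JQ1 libraries and 24589 to 25288 in I-BET-762 libraries, so that every treated library lay below every vehicle library.

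Among the 28 accessory subunits of complex I tested, 10 rose and 6 fell with JQ1 (36.0% and 35.6% of all genes), and 6 rose and 5 fell with I-BET-762 (29.9% and 31.3% of all genes); rescaling to equal totals turned the balance, giving 4 and 13 for JQ1 and 6 and 9 for I-BET-762. The class held large changes of both signs. NDUFV3 (ENSG00000160194, chr21:42879644-42913304, plus strand), a subunit of the NADH dehydrogenase module, had 2206, 2255 and 2240 normalized counts with DMSO, 3946, 3996, 4022 and 3844 with JQ1, and 3288, 3269 and 3231 with I-BET-762. It rose by 0.82 ± 0.042 (SE) on the log2 scale with JQ1 (adjusted p = 6.38e-11) and by 0.55 ± 0.045 with I-BET-762 (adjusted p = 4.02e-08), and its 3 groups did not overlap. NDUFC1 (ENSG00000109390, chr4:139266880-139302551, minus strand), a small subunit of the membrane arm, went the other way. It had 1518, 1712 and 1562 normalized counts with DMSO, 855, 823, 846 and 713 with JQ1, and 836, 810 and 761 with I-BET-762. The change came to −0.98 ± 0.072 on the log2 scale with JQ1 (adjusted p = 4.98e-09) and −0.99 ± 0.077 with I-BET-762 (adjusted p = 2.29e-08).

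NDUFA9, which is part of the joint between the arms of complex I, fell from 656 to 724 normalized counts with DMSO to 407 to 452 with JQ1, a log2 fold change of −0.70 (adjusted p = 1.73e-07), and to 488 to 509 with I-BET-762, −0.45 (adjusted p = 6.48e-05). NDUFA2, a small subunit of the NADH module, rose from 1429 to 1582 with DMSO to 2112 to 2463 with JQ1, a log2 fold change of 0.64 (adjusted p = 1.99e-07), and to 1870 to 2093 with I-BET-762, 0.40 (adjusted p = 0.000123). NDUFA2 shares 27.4% of its exon bases with genes on the opposite strand, and the strand setting of the counting is not given in the sources used here. NDUFB5 and NDUFC2 also rose with each inhibitor, and NDUFA5 and NDUFB4 also fell with each. NDUFB2 rose with each, its call with JQ1 being lost under rescaling to equal totals. NDUFA7 and NDUFA13, at the low levels given above, had log2 fold changes of −0.54 (95% interval −1.16 to 0.08) and 0.32 (−0.02 to 0.66) with JQ1, wide intervals that did not pass.

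**Figure D4:**
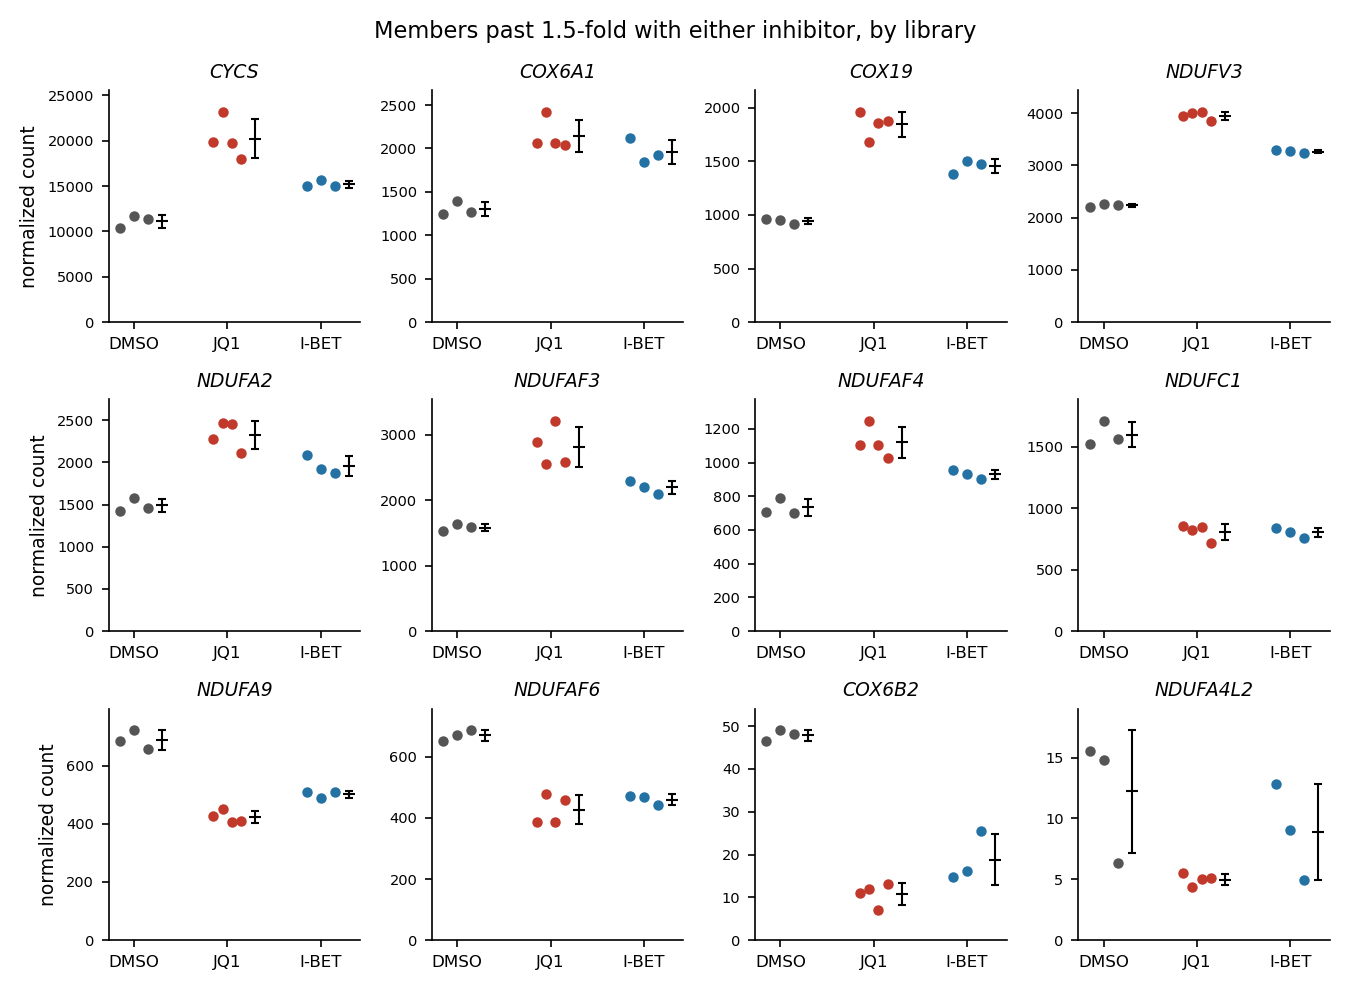
Normalized counts per library (points) with the group mean and SD (bars) for the 12 members past 1.5-fold at an adjusted p under 0.05 with JQ1 or I-BET-762, each panel starting at 0. The 4 JQ1 libraries lie apart from the 3 DMSO libraries in each panel, and the 3 I-BET-762 libraries lie between them for CYCS, NDUFV3, NDUFAF3, NDUFAF4, COX19, NDUFA2, NDUFA9 and COX6B2.

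Of 8 complex I assembly factors, 4 rose and 2 fell with JQ1, against 36.0% and 35.6% of all genes, and 3 rose and 1 fell with I-BET-762, against 29.9% and 31.3%, counts that became 4 and 4, and 3 and 4, after rescaling to equal totals. NDUFAF3 and NDUFAF4 act together at an early step of assembly, and both rose. NDUFAF3 had 1534, 1632 and 1588 normalized counts with DMSO, 2889, 2562, 3219 and 2591 with JQ1, and 2295, 2206 and 2100 with I-BET-762. The rises were 0.82 ± 0.070 (adjusted p = 3.06e-08) and 0.47 ± 0.075 (adjusted p = 5.23e-05) on the log2 scale. NDUFAF4 rose by 0.61 with JQ1 (adjusted p = 1.20e-06) and 0.34 with I-BET-762 (adjusted p = 0.00102). NDUFAF6, which is needed for the early membrane part of complex I, fell by 0.66 with JQ1 (adjusted p = 3.61e-06) and by 0.54 with I-BET-762 (adjusted p = 8.43e-05). NDUFAF2, a late factor, rose with JQ1 alone, from 903 to 1062 normalized counts with DMSO to 1096 to 1505, where JQ1 replicate 20 was the lowest, and lay at 957 to 1056 with I-BET-762.

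In complex II, which also belongs to the citric acid cycle, SDHA was the 1 gene of 4 that passed, and it was higher with each inhibitor, where 36.0% of all genes rose with JQ1 and 29.9% with I-BET-762. This flavoprotein subunit had 715, 669 and 644 normalized counts with DMSO, 915, 865, 960 and 912 with JQ1, and 875, 791 and 906 with I-BET-762, rises on the log2 scale of 0.43 ± 0.067 (adjusted p = 2.42e-05) and 0.34 ± 0.071 (adjusted p = 0.000642). SDHA shares 69.4% of its exon bases with another gene on the same strand, and 13.1% of its 75-base exon stretches have an exact copy elsewhere in the genome, so its count is uncertain. SDHB, the iron-sulfur subunit, differed from DMSO by 0.03 with JQ1 (95% interval −0.09 to 0.15), −0.16 after rescaling to equal totals, and by −0.05 with I-BET-762 (−0.18 to 0.08). The membrane anchors SDHC and SDHD differed by 0.06 (−0.10 to 0.22) and 0.13 (−0.02 to 0.29) with JQ1, values that turned to −0.13 and −0.053 after rescaling to equal totals, and their counts are uncertain too, with exact copies elsewhere of 38.1% and 15.6% of their stretches and 23.8% of SDHD exon bases shared on the same strand.

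In complex III, 4 of 10 genes rose and 1 fell with JQ1, where 36.0% and 35.6% of all genes did. With I-BET-762, 3 rose and 1 fell, where 29.9% and 31.3% did. Rescaling to equal totals turned these counts to 3 and 4, and 1 and 3. Of the 14839 genes tested, 3537 rose and 6904 fell there with JQ1, and 3365 and 5664 with I-BET-762. UQCRQ, a small subunit next to cytochrome b, rose from 4931 to 5345 normalized counts with DMSO to 6205 to 7738 with JQ1, a log2 fold change of 0.44 (adjusted p = 1.29e-05), and to 6009 to 6411 with I-BET-762, 0.28 (adjusted p = 0.00200). UQCRH rose by 0.30 with JQ1 (adjusted p = 0.000673) and by 0.21 with I-BET-762 (adjusted p = 0.0190), where the call was lost under rescaling to equal totals, with moderation without a trend, and without DMSO replicate 13 or I-BET-762 replicate 21 or 22. Its intronless copy UQCRHL, at 589 to 648 normalized counts with DMSO, rose by 0.23 with JQ1 (adjusted p = 0.0265), a call that was lost without DMSO replicate 13 or JQ1 replicate 18, under both rescalings and with moderation without a trend. CYC1, the cytochrome c1 subunit, differed by −0.02 with JQ1 (95% interval −0.12 to 0.08), and UQCR10 fell by 0.20 (adjusted p = 0.0115), a call lost without DMSO replicate 14.

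Cytochrome c, the mobile electron carrier between complexes III and IV and an activator of caspases once released from mitochondria, gave the second largest rise among the members with JQ1. Its gene CYCS (ENSG00000172115, chr7:25118656-25125260, minus strand) had 10325, 11692 and 11324 normalized counts with DMSO, 19900, 23202, 19748 and 17996 with JQ1, and 14950, 15638 and 14963 with I-BET-762. The groups did not overlap. The rise was 0.86 ± 0.070 with JQ1 (adjusted p = 1.75e-08) and 0.45 ± 0.075 with I-BET-762 (adjusted p = 7.81e-05). Processed copies of CYCS exist in the genome, and 7.9% of its 75-base exon stretches have an exact copy elsewhere.

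Of the 14 complex IV subunits tested, 8 rose and 2 fell with JQ1 (all genes 36.0% and 35.6%), and 6 rose and 1 fell with I-BET-762 (all genes 29.9% and 31.3%), and after rescaling to equal totals 6 rose and 6 fell with JQ1 and 5 rose and 3 fell with I-BET-762. COX6A1 (ENSG00000111775, chr12:120438090-120440737, plus strand), the widely expressed isoform of a regulatory subunit, had 1248, 1400 and 1271 normalized counts with DMSO, 2058, 2425, 2062 and 2035 with JQ1, and 2118, 1849 and 1924 with I-BET-762. It rose by 0.71 ± 0.070 with JQ1 (adjusted p = 1.65e-07) and by 0.59 ± 0.075 with I-BET-762 (adjusted p = 5.58e-06), and shares 32.6% of its exon bases with another gene on the same strand. NDUFA4, now counted as a complex IV subunit, rose by 0.48 with JQ1 (adjusted p = 2.51e-05) and by 0.29 with I-BET-762 (adjusted p = 0.00473). COX7A2, COX7A2L, COX6C and COX8A rose with each inhibitor, the calls for COX8A being lost under rescaling to equal totals, and that with I-BET-762 also without I-BET-762 replicate 21 or a trend in the moderation. COX4I1 and COX6B1, an early subunit in assembly and a subunit facing the intermembrane space, differed by −0.04 (95% interval −0.15 to 0.07) and −0.02 (−0.17 to 0.12) with JQ1, and COX7B by −0.11.

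The falls in complex IV were those of isoforms with few reads. COX6B2 (ENSG00000160471, chr19:55349306-55354719, minus strand) had 46.5, 49.0 and 48.2 normalized counts with DMSO, 11.0, 12.0, 7.0 and 13.2 with JQ1, and 14.8, 16.0 and 25.6 with I-BET-762. All treated libraries lay below the vehicle libraries, and the change on the log2 scale was −2.08 ± 0.28 with JQ1 (adjusted p = 5.40e-06) and −1.34 ± 0.30 with I-BET-762 (adjusted p = 0.00104). NDUFA4L2, known as a hypoxia-induced gene, had 15.5, 14.8 and 6.4 normalized counts with DMSO, 5.5, 4.4, 5.0 and 5.1 with JQ1, and 12.8, 9.0 and 4.9 with I-BET-762. Its change of −1.06 ± 0.42 with JQ1 (adjusted p = 0.0322) rests on 4.4 to 5.5 normalized counts a library and was lost without JQ1 replicate 18. NDUFA4L2 reached the filter's count of 10 in DMSO replicates 13 and 14 and I-BET-762 replicate 21 alone, and in no JQ1 library. The filter asks for 3 libraries, so without any 1 of these the gene was not tested.

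Among the 9 assembly factors of complex IV, 4 rose and 2 fell with JQ1 (all genes 36.0% and 35.6%), and 3 rose and 2 fell with I-BET-762 (all genes 29.9% and 31.3%), against 1 and 4, and 1 and 3, after rescaling to equal totals. COX19 (ENSG00000240230, chr7:898778-975549, minus strand), which takes part in copper delivery to complex IV, had the largest rise of all members. It had 959, 957 and 916 normalized counts with DMSO, 1965, 1681, 1856 and 1881 with JQ1, and 1384, 1508 and 1480 with I-BET-762. It rose by 0.96 ± 0.060 with JQ1 (adjusted p = 6.78e-10) and 0.63 ± 0.064 with I-BET-762 (adjusted p = 4.73e-07), with no overlap between the groups. COX14, which binds newly made COX1 protein, fell by 0.46 with JQ1 (adjusted p = 0.000176) and by 0.36 with I-BET-762 (adjusted p = 0.00288). COX10, an enzyme of heme A synthesis, fell with JQ1, and its fall with I-BET-762 was lost without DMSO replicate 14 or I-BET-762 replicate 21 or 22. COX15, the next enzyme of that pathway, rose with each, calls that were lost under rescaling to equal totals.

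In ATP synthase, 8 of 19 genes rose and 2 fell with JQ1 (all genes 36.0% and 35.6%). With I-BET-762, 5 rose and 2 fell (all genes 29.9% and 31.3%). Rescaling to equal totals gave 4 and 6, and 5 and 4. At that scaling the 14839 genes had 3537 rises and 6904 falls with JQ1, and 3365 and 5664 with I-BET-762. ATP5PD, the d subunit of the peripheral stalk, had 4104, 4409 and 4500 normalized counts with DMSO, 6220, 7194, 5834 and 6322 with JQ1, and 5832, 6187 and 5773 with I-BET-762. Its rise was 0.56 ± 0.062 with JQ1 (adjusted p = 7.34e-07) and 0.45 ± 0.067 with I-BET-762 (adjusted p = 2.49e-05). The catalytic ring subunits ATP5F1A and ATP5F1B had log2 fold changes of 0.33 (adjusted p = 0.000173) and 0.19 (adjusted p = 0.00794) with JQ1, the latter call being lost under rescaling to equal totals. ATP5MC1, ATP5MC2 and ATP5MC3 encode the same mature c-ring protein. ATP5MC1 fell by 0.50 with JQ1 (adjusted p = 7.40e-05), from 3078 to 3089 normalized counts to 1804 to 2562, and ATP5MC2 differed by −0.08 (95% interval −0.23 to 0.08). ATP5IF1, the inhibitor that stops ATP hydrolysis by the enzyme, fell by 0.20 with JQ1 (adjusted p = 0.0102) and by 0.30 with I-BET-762 (adjusted p = 0.00112).

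**Figure D5:**
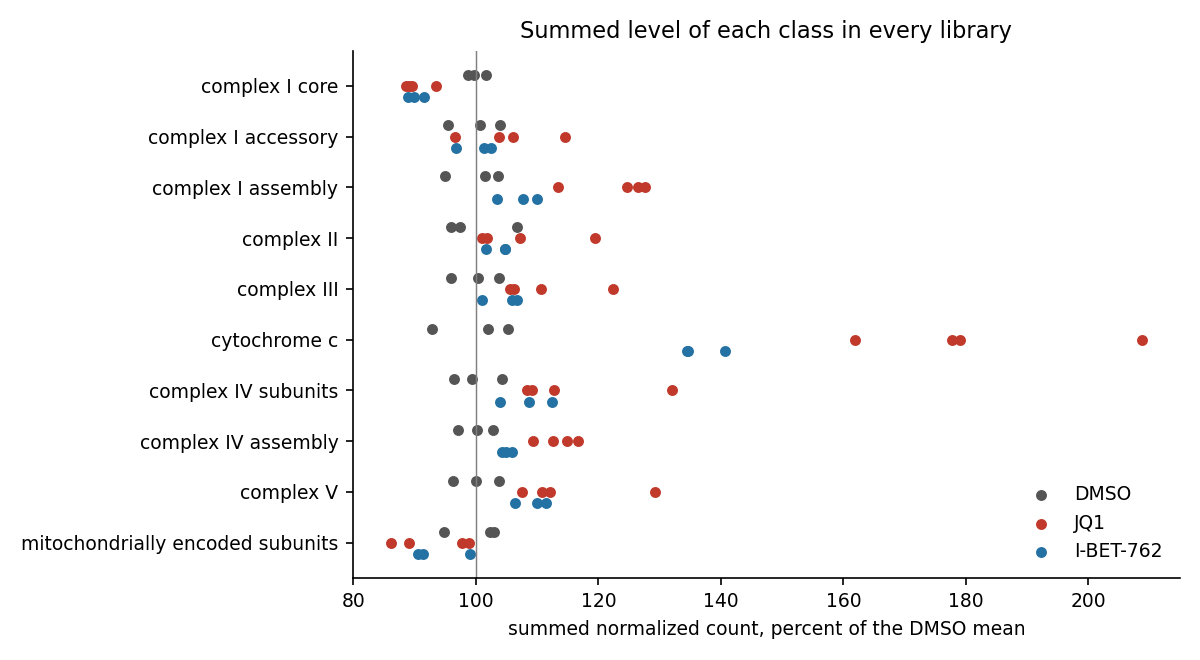
Summed normalized count of each class in every library, as a percentage of the mean of the 3 DMSO libraries (horizontal axis), for DMSO (grey), JQ1 (red) and I-BET-762 (blue); each point is a library. The treated libraries lie left of the vehicle libraries for the complex I core and right of them for cytochrome c, complex V and complex IV assembly, and JQ1 replicate 18 is the rightmost point for complexes II, III and V, cytochrome c, the complex I accessory and the complex IV subunits. As shares of all normalized counts the treated and vehicle ranges overlap for complex V and complex IV assembly.

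The libraries of a group did not vary independently from member to member. JQ1 replicate 18 was the highest JQ1 library for 68 of the 100 tested members, against 36.7% of all genes. DMSO replicate 14 was the highest vehicle library for 72, against 37.6%, and I-BET-762 replicate 21 the highest of its group for 56, against 32.5%. The summed count of all 102 members was 350288 to 378309 with DMSO, 392027 to 456399 in JQ1 libraries and 375235 to 394257 in I-BET-762 libraries, and as a share of all normalized counts 1.02% to 1.06%, 0.998% to 1.09% and 1.01% to 1.04%. Without JQ1 replicate 18, 41 members rose and 23 fell with JQ1, and the falls with I-BET-762, whose fit shares that library's spread, went from 15 to 23. Without DMSO replicate 14, 41 rose and 15 fell with JQ1, and 28 rose and 11 fell with I-BET-762. For all genes the shares called in these fits are not given here, so these counts cannot be set against them.

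The table also holds the 13 subunit genes of the mitochondrial genome, a list added after the values were seen. With JQ1, 5 rose and 2 fell (all genes 36.0% and 35.6%), and with I-BET-762, 3 rose and 2 fell (all genes 29.9% and 31.3%). Rescaling to equal totals left 1 rise and 5 falls with each. Leaving out 1 library gave 3 to 5 rises and 2 to 3 falls with JQ1, and 1 to 4 rises and 1 to 4 falls with I-BET-762. All-gene shares for those fits are not given here. ND5, a proton-pumping subunit of complex I, had 3613, 3279 and 3208 normalized counts with DMSO, 5655, 4288, 4756 and 4847 with JQ1, and 4238, 5092 and 4885 with I-BET-762, rises on the log2 scale of 0.53 ± 0.082 (adjusted p = 2.35e-05) and 0.49 ± 0.087 (adjusted p = 0.000155). COX3 fell by 0.35 with JQ1 (adjusted p = 1.91e-05) and by 0.21 with I-BET-762 (adjusted p = 0.00401). COX1, the catalytic subunit of complex IV, fell by 0.26 with JQ1 (adjusted p = 0.00210), from 41958 to 44490 normalized counts to 33253 to 40722. Their summed count was 100774 to 109472 with DMSO, 91498 to 105181 in JQ1 libraries and 96288 to 105197 in I-BET-762 libraries, ranges that overlap. As a share of all normalized counts the sum was 0.293% to 0.309% with DMSO, 0.226% to 0.265% in JQ1 libraries and 0.257% to 0.278% in I-BET-762 libraries, so that on this scale every treated library lay below every vehicle library. Exact copies elsewhere in the genome exist for 8 of 20 stretches of 75 bases of COX1 and for 6 of 13 of ND2.

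Of 43 assembly factors outside the name stems, 23 rose and 9 fell with JQ1 (all genes 36.0% and 35.6%), and 18 rose and 10 fell with I-BET-762 (all genes 29.9% and 31.3%), with 15 falls after rescaling to equal totals with JQ1. DMAC2L, a factor associated with ATP synthase, had the highest mean change over both inhibitors, 0.76 with JQ1 (adjusted p = 2.49e-07) and 0.97 with I-BET-762 (adjusted p = 7.19e-08), though 57.5% of its exon bases are shared with the opposite strand. COA6, a copper chaperone for complex IV, fell by 0.995 with JQ1 (adjusted p = 7.14e-09) and by 0.89 with I-BET-762 (adjusted p = 1.25e-07). It went from 1033 to 1190 normalized counts to 507 to 604 with JQ1, while the I-BET-762 libraries held 591 to 623.

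Of 13 regulators of mitochondrial biogenesis, 7 were higher and 2 lower for JQ1 (all genes 36.0% and 35.6%) and 3 of each sign passed for I-BET-762 (all genes 29.9% and 31.3%), and rescaling to equal totals left 3 up with JQ1. PPARGC1B, a coactivator of the PGC-1 family, fell by 0.74 with JQ1 (adjusted p = 2.33e-05) and by 0.88 with I-BET-762 (adjusted p = 1.16e-05), from 382 to 533 normalized counts to 240 to 277 and 217 to 246. PPARGC1A stayed at or under 5.4 normalized counts in every library and was not tested. TFAM, which packages and transcribes mitochondrial DNA, rose by 0.55 with JQ1 (adjusted p = 1.72e-06) and by 0.30 with I-BET-762 (adjusted p = 0.00156), and NRIP1, a corepressor of oxidative genes, rose by 0.88 (adjusted p = 1.35e-09) and 0.66 (adjusted p = 1.70e-07). GABPA rose by 0.30 (adjusted p = 0.000361) and 0.36 (adjusted p = 0.000163), whereas NRF1 had 0.16 with JQ1 (adjusted p = 0.0265), which turned to −0.02 after rescaling to equal totals and did not pass without DMSO replicate 14 or 15 or JQ1 replicate 18. ESRRA was 0.37 higher with JQ1 than with I-BET-762 (adjusted p = 0.000700). In the citric acid cycle, which feeds the chain with NADH and succinate, 8 of 13 genes rose with each inhibitor, where 36.0% and 29.9% of all genes did, and 1 and 2 fell, against 4 and 4 with JQ1 after rescaling to equal totals. OGDH, a subunit of the oxoglutarate dehydrogenase complex, rose by 1.01 with each, adjusted p = 1.63e-09 with JQ1 and 9.66e-09 with I-BET-762. SUCLG2, a subunit of a succinyl-CoA synthetase, had −0.06 with JQ1 (95% interval −0.19 to 0.06) and fell by 0.35 with I-BET-762 (adjusted p = 0.000213).

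JQ1 and I-BET-762 were compared directly at the same dose and time. Of 100 members, 11 were higher and 4 lower with JQ1 at an adjusted p under 0.05 (limma), against 27.3% of all genes tested, 13.3% higher and 14.0% lower. With a 1.5-fold change 0 passed, against 5.31% of all genes, 1.73% higher and 3.59% lower. At that fold 2 members passed an unadjusted p under 0.05, and limma-voom also called 0 after adjustment. The JQ1 libraries lay wholly above those of I-BET-762 in 12 members and below in 2, against 17.5% and 16.3% of all genes (33.8% in either direction). For 95 members the 95% confidence interval of the difference lay inside 1.5-fold, which held for 69.8% of all genes. CYCS was 0.41 higher with JQ1 (95% interval 0.26 to 0.56, adjusted p = 0.000580), NDUFAF2 0.44 (0.23 to 0.64, adjusted p = 0.00324), NDUFAF3 0.35 (0.20 to 0.50, adjusted p = 0.00186), COX19 0.34 (0.21 to 0.47, adjusted p = 0.000697) and NDUFV3 0.28 (0.19 to 0.36, adjusted p = 0.000204). These 5 were the members that stayed called under all 19 alternative settings. ATP5MC1 was 0.28 lower with JQ1 (95% interval −0.46 to −0.10, adjusted p = 0.0233), a call lost without JQ1 replicate 19 or without I-BET-762 replicate 21 or 22. NDUFC1 differed by 0.01 (−0.14 to 0.16) and COX6A1 by 0.13 (−0.02 to 0.28). The count of members higher with JQ1 ranged from 6, without I-BET-762 replicate 23, to 20, without JQ1 replicate 20. The count lower ranged from 0, without I-BET-762 replicate 21, to 8, without JQ1 replicate 18. All-gene shares for these fits are not given here. Rescaling to equal totals turned the split to 7 higher and 10 lower, where all genes had 1002 and 3525.

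Promoter sequences from RefSeq (GRCh38.p14) were found for 83 of the 102 members, 250 bases before to 50 after the start, with the first listed start of each gene. The letters GCGCANGCG, from the motif of NRF1, occurred on either strand in 30.1% of the members' windows, against 14.5% of the 11244 windows of tested genes. CCGGAAGT, the ETS motif that GABP binds, occurred in 15.7% against 8.56%, and AAGATGGCG, from the motif of YY1, in 9.64% against 3.83%. GGGCGGGG, a motif of SP1, was less frequent among members, at 21.7% against 38.9%, and TCAAGGTCA, a motif of ERRalpha, occurred in 1.20% against 0.187%. The NRF1 and YY1 letters were shortened after a first search with longer forms of 10 and 11 letters, which occurred in 22.9% against 11.5% and in 6.02% against 1.95%. Of the windows of members up with both inhibitors, 4 of 23 held the NRF1 letters and 5 of 23 the ETS letters. Of those down with both, 2 of 10 held each, and of those that passed with neither, 12 and 5 of 32. None of the motifs contains another, and a match is a description of the window alone. These stretches, outside annotated exons, run 5′ to 3′ on the gene's strand with motif letters in capitals. The first are those of CYCS, COX19 and NDUFC1, abundant members past 1.5-fold with JQ1 and picked with their values in view, and the others are members that passed with both inhibitors and hold a match.
CYCS, chr7:25125261-25125510, minus strand: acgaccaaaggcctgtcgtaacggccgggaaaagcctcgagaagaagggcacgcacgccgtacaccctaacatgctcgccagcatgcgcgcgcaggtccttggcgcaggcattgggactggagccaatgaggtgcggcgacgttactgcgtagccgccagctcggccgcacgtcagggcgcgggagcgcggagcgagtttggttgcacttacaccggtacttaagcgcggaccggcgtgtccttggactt
COX19, chr7:975550-975799, minus strand: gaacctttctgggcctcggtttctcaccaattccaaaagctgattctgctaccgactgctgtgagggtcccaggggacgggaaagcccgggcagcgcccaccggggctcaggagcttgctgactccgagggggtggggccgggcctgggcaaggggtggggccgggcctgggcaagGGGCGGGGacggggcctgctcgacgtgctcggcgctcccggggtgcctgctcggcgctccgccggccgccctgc
NDUFC1, chr4:139302552-139302801, minus strand: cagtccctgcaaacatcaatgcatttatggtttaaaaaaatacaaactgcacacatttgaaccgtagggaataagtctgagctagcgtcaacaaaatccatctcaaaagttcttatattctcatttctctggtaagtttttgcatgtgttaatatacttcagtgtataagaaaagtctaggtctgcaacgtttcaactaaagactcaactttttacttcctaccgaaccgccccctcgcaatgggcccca

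Of these, the COX19 stretch holds the SP1 motif, and the stretches of CYCS and NDUFC1, which moved in opposite directions, hold none of the letters searched. Only exact letters were searched, so a stretch without a match may still hold a variant of a motif or a working site. The next stretches hold a match to the NRF1 motif (SDHA, up, and NDUFB4, down) or to the ETS motif (UQCRQ, ATP5PD and COX8A, up). NDUFB4, an accessory subunit of complex I chosen here after its values were seen, fell by 0.38 with JQ1 and by 0.36 with I-BET-762.
SDHA, chr5:218154-218297, plus strand: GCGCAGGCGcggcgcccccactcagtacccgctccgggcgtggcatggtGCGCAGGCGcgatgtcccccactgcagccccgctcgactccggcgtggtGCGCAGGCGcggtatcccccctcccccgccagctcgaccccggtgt
NDUFB4, chr3:120596086-120596327, plus strand: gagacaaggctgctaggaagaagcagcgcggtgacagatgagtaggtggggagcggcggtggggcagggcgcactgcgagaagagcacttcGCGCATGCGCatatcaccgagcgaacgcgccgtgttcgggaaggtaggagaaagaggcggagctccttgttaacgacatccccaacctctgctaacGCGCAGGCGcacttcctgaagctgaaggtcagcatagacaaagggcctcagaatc
UQCRQ, chr5:132866547-132866598, plus strand: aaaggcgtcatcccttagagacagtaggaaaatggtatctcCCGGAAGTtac
ATP5PD, chr17:75046986-75047183, minus strand: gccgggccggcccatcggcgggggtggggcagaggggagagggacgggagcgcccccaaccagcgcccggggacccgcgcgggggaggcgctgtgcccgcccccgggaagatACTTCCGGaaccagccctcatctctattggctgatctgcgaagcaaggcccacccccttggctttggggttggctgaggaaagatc
COX8A, chr11:63974370-63974619, plus strand: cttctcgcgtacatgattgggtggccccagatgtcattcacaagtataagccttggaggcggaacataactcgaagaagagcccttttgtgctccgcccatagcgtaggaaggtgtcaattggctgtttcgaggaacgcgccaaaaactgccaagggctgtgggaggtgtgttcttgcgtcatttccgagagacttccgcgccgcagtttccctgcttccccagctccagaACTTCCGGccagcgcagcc

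The SDHA stretch holds the NRF1 letters at 3 places and the NDUFB4 stretch at 2, the first with overlapping matches on both strands. SDHA and NDUFB4 moved in opposite directions with both inhibitors.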

How the data were processed

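RNA-seq libraries of SK-UT-1 cells were analysed from 1 table of gene symbols. The authors deposited log2 values, which were log2 of DESeq2-normalized counts plus 1; whole reads were recovered from 99.73% to 99.77% of the values of a library, within a tolerance of 0.01 reads. Per the study's methods and the submitters' processing notes, reads from stranded total RNA libraries were checked with FastQC 0.73, passed through Trimmomatic, mapped by HISAT2 2.2.1 to hg38 and counted with featureCounts 2.0.3, and outlier samples were left out. Strand and overlap settings of the counting are not given in the sources used here. The normalized values hold no column for the labelled samples 16 (vehicle) and 24 (I-BET-762), so these were not used here. Whether they were the outliers left out is not stated in the sources used here. The spread behind the p-values is that of the 10 libraries with values.

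The linear model was limma's, version 3.58.1 under R 4.3.3 (empirical Bayes moderation with a mean trend), with all 10 libraries in 1 fit, and p-values were adjusted by the Benjamini-Hochberg method over 14839 genes with a normalized count of at least 10 in at least 3 libraries. Fold changes are therefore on the log2(value + 1) scale and understate those of low genes. Errors of fold changes are standard errors. Calls used an adjusted p under 0.05, alone or with a fold change over 1.5. The fit was tested on simulated data, with an outcome that is not given here. Because the table holds log2 values, limma stood in for a count test, and limma-voom on the recovered reads was an alternative. The other alternatives were pseudocounts of 0.5 and 5, no filter, a mean of at least 100, rescaling to equal totals or upper quartiles, moderation without a trend, the 2 compared groups alone, a fold of 2, and each library left out. Gene positions and shared exons came from Gencode V44 on hg38, promoters from RefSeq GRCh38.p14. Summaries used Python 3.11.15.

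The members and lists were chosen with earlier results of these data known. Genes with values were named by rule: every member past both limits, the highest and lowest mean change in each class and list, the complex II and cytochrome c genes, tissue isoforms, the highest level per kilobase in each complex, ATP5IF1 and the main regulators. NDUFAF2, NDUFB4, ATP5F1A, ATP5MC2, UQCRFS1, NDUFA3, NDUFA7, NDUFA13, NDUFV2, the mitochondrially encoded genes, and members named by their direction alone were chosen after their values were seen. The values of 1 member are not reported here.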

Additional observations from a re-analysis of the deposited data

Results flagged for a closer look

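Single libraries far from the other 3 JQ1 libraries were looked for in 72 named genes, by the gap to the nearest library over the group's range (Dixon's criterion at the 95% level). There were 10 such genes, and chance gives about 1 in 20 groups. JQ1 replicate 18 was the high library for 5 of them, COX6A1 at 2425 normalized counts (others 2035 to 2062), SDHC at 1919 (1519 to 1561), COX7B at 4903 (3807 to 3948), NDUFA4 at 7223 (5664 to 5760) and UQCRH at 10837 (8839 to 9085). JQ1 replicate 20 was low for ATP5IF1, at 3125 (others 3672 to 3756), and for NDUFAF2, at 1096 (1432 to 1505). JQ1 replicate 17 was low for COX14, at 336 (405 to 420). JQ1 replicate 19 was high for ND4L, at 1090 (911 to 937), and for COX7B2, at 1 against 0 in the others, which is a single read. The share of RN7SL1 among normalized counts was 2.63% to 2.78% with DMSO, 2.91% to 3.25% with I-BET-762 and 3.17% to 3.49% with JQ1, highest in JQ1 replicate 18, and its part in these values was not tested.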

How the results depend on the processing

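No paired analysis was possible because the replicate numbers, 13 to 24, are not shared between groups. Rescaling to equal totals changed many of the results. With JQ1 it gave 24 members up and 43 down (4 and 9 past 1.5-fold) with a median of −0.11, and for the other lists 15 assembly factors lower (median 0.079), 3 regulators higher (median −0.017), and 4 citric acid cycle genes higher and 4 lower (median 0.032). NDUFV1 (−0.021), SDHB (−0.16), UQCRFS1 (−0.17), NRF1 (−0.025), ND4 (−0.050), CYTB (−0.072) and ATP6 (−0.18), called in at least 1 of the 2 scalings, turned their sign, as did SDHC (−0.13), SDHD (−0.053) and COX2 (−0.085), called in neither. With I-BET-762 it gave 32 members lower, 0 past 1.5-fold upward and a median of −0.058, an assembly median of −0.0067, 5 regulators lower (median 0.023) and 5 cycle genes higher (median 0.085). Between the inhibitors it gave 7 members higher and 10 lower, 1 of them past 1.5-fold, and a median of −0.021. Equal upper quartiles gave, with JQ1, an assembly median of 0.20, 3 regulators higher (median 0.10) and 2 cycle genes lower (median 0.15), and with I-BET-762 23 members lower, 1 past 1.5-fold upward and an assembly median of 0.053. A mean of at least 100 left 3 members down past 1.5-fold for JQ1 and 1 for I-BET-762, and an assembly median of 0.14 with I-BET-762. Lower cycle genes with I-BET-762 numbered 1 with a pseudocount of 0.5, no filter or no trend. Without a trend 2 members were lower with JQ1 than with I-BET-762, 1 past 1.5-fold. With the 2 groups alone, 25 members were lower and 5 regulators higher with I-BET-762. A fold of 2 left 2 members with JQ1, both down, and 1 with I-BET-762, down, with 0 up in either (limma). The cause of these changes was not tested. Leaving out each library gave 38 to 47 rises and 15 to 23 falls among members for JQ1, 24 to 32 rises and 11 to 23 falls for I-BET-762, with 1 to 2 rises past 1.5-fold, and between the inhibitors 6 to 20 higher and 0 to 8 lower, 0 to 1 past 1.5-fold. Lower cycle genes ranged from 1 to 2 for JQ1 and 1 to 3 for I-BET-762, the assembly median with JQ1 from 0.22 to 0.28 and higher regulators with JQ1 from 4 to 9. Reads recovered and tested with limma-voom gave 41 members up and 18 down with JQ1. Apart from some counts for the rescalings, the share of all genes called under these alternatives is not given here. Depth limits COX7B2, NDUFA3, NDUFA4L2 and COX6B2, which hold few reads.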
